A study of Danio rerio with 20 samples.

Results

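The 6 microRNAs of striated muscle, given by probes miR-1, miR-133a, miR-133b, miR-133c, miR-206 and miR-499, were followed in whole zebrafish that carry a mutation in dystrophin and in their wild types. They were chosen by probe name (dre-miR-1, dre-miR-133a, dre-miR-133b, dre-miR-133c, dre-miR-206 and dre-miR-499), as microRNAs known from skeletal muscle and heart. They are 6 of the 219 mature zebrafish microRNA probes on the array, and 6 of the 167 probes that were bright enough to test. Each group was made of whole fish of the TL strain, so muscle was never isolated, and in such samples fewer muscle cells and less microRNA per muscle cell cannot be told apart.

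The sapje and sapje-like lines carry different mutations of dmd, the gene of dystrophin, the protein that ties the actin skeleton of a muscle fibre to its surrounding matrix. The sapje fish came with wild types labelled SW and the sapje-like fish with wild types labelled SLW, and all were fed the same standard diet. Fish were taken at 5 days post fertilization (dpf), as larvae, with 2 samples of each of the 4 genotypes, and at 30 dpf, as juveniles, with 3 samples of each. RNA came from 10 fish per cohort, per the labels; the zygosity of the mutants was not given, and nothing states that the samples of a group were separate pools. The p-values therefore measure the spread between these samples, which may be technical.

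Mature microRNAs pair through bases 2 to 8, the seed, with messenger RNAs and lower their stability or translation. In vertebrates miR-1, miR-206 and the miR-133 genes are switched on by the myogenic transcription factors as muscle forms; in mouse cells miR-1 promotes differentiation of muscle precursors and miR-133 their proliferation. In mammals miR-206 is largely restricted to skeletal muscle and delays dystrophic damage in dystrophin-deficient mice, while miR-499 lies within a slow myosin gene and favours the slow, oxidative fibre type in mice.

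The target sequences listed in the deposited scanner files show why the 6 probes fall into 3 families, and how little separates the members of a family. Capitals mark the seed.
miR-1: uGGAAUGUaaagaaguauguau
miR-206: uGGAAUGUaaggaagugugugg
miR-133a: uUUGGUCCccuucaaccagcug
miR-133b: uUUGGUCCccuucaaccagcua
miR-133c: uUUGGUCCcuuucaaccagcua
miR-499: uUAAGACUugcagugauguuua
miR-1 and miR-206 share their seed and differ outside it at A11G, A17G, A21G and U22G, positions being counted from the 5′ end with the base of miR-1 first. The 3 miR-133 probes share another seed. miR-133b differs from miR-133a only at G22A and miR-133c differs from miR-133b only at C10U. No other mature probe on the array carried 1 of these 3 seeds. RefSeq annotation places the hairpins of these families beside each other: mir1-1 next to mir133a-2, mir1-2 next to mir133a-1, mir133b next to mir206-1 and mir133c next to mir206-2, with mir499a inside the slow myosin gene myh7ba.

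Each sample was 1 dye channel of a 2-colour array with 12 spots per probe. A probe counted as above background when its mean lay over 3 robust SDs above the median of 1032 empty spots. Per sample, 105 to 173 of the 219 probes did so. The probes for miR-1, miR-206, miR-133a and miR-133b were above background in all 20 samples. miR-133c was so in 19, the exception being wild type SW replicate 2 at 5 dpf, and miR-499 in 19, the exception being sapje-like replicate 3 at 30 dpf. Values below are quantile-normalised log2 intensities unless the authors' deposited table is named. The 10 arrays are not named in the labels. They were inferred from spot-to-spot patterns shared between samples of opposite dye, and each held a mutant sample and a wild type sample of its own cohort. These patterns correlated at 0.453 to 0.818 between partners. The pairing was least sure for SLW replicate 5 at 30 dpf (0.453), whose partner was not its best match among samples of either dye. No inferred array held both ages or both cohorts. Differences between ages, or between SLW and SW, therefore cannot be told apart from differences between arrays.

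**Figure D1:**
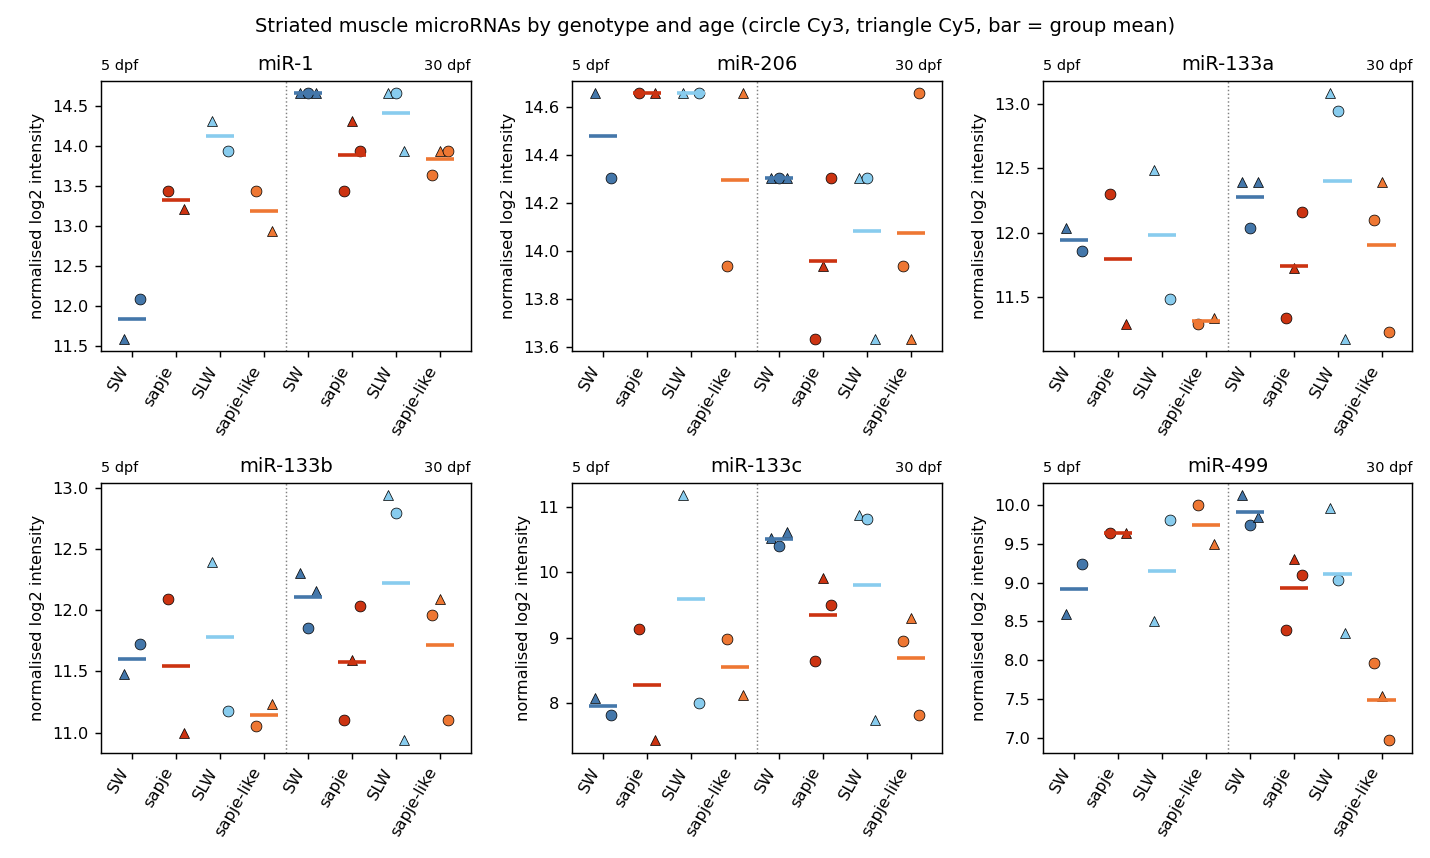
Normalised log2 intensity (vertical axes, which differ between panels and do not start at 0) of the 6 muscle microRNAs in 20 samples, grouped by genotype at 5 dpf (left of the dotted line) and 30 dpf (right). Symbols are samples, circles Cy3 and triangles Cy5, and horizontal bars are group means; miR-1 is lowest in wild type SW at 5 dpf and miR-499 in sapje-like fish at 30 dpf.

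At 30 dpf the dystrophin mutants, pooled over both lines, had less miR-499 than their wild types. In the reported setting miR-1 passed as lower too, but that call depended on the scaling. It held in 10 of 18 alternatives and in 13 of 20 fits with 1 sample left out. The other 4 muscle microRNAs had estimates below 0 that did not pass the test. Over both cohorts, 6 samples against 6, miR-499 fell by 1.34 ± 0.31 (SE) on the log2 scale, 2.54-fold, and miR-1 fell by 0.68 ± 0.19, 1.61-fold. Under the same test, limma with dye as a covariate and Benjamini-Hochberg adjustment over 167 probes, 13.2% of all probes passed an adjusted p of 0.05 in either direction and 7.78% passed as lower. The median log2 difference was -0.60 over the 6 muscle microRNAs and -0.06 over all 167 probes.

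miR-499, the microRNA of slow fibres, was 10.13, 9.74 and 9.85 in wild type SW replicates 2, 3 and 4 and 8.39, 9.30 and 9.09 in sapje replicates 1, 2 and 3. It was 9.96, 9.04 and 8.35 in wild type SLW replicates 2, 5 and 8 and 7.96, 7.53 and 6.97 in sapje-like replicates 1, 2 and 3. Mutant and wild type values did not overlap within either cohort. The lowest, sapje-like replicate 3, was the sample in which the probe was not above background. Sapje-like replicates 1 and 2 were near it, at 1.79 and 1.90 times the empty-spot median. Non-overlap was common at these sample sizes: of all 167 probes, 16.2% were lower without overlap in sapje and 19.2% in sapje-like fish. In the authors' deposited table the miR-499 values were 1015, 732 and 692 against 273, 543 and 476 in the sapje cohort and 890, 455 and 279 against 184, 109 and 66.0 in the sapje-like cohort. There too the mutants lay below the wild types of their cohort without overlap.

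Within each cohort the miR-499 difference was -1.02 ± 0.43 for sapje against SW (95% confidence interval -1.95 to -0.09; limma adjusted p = 0.315) and -1.67 ± 0.43 for sapje-like against SLW (-2.60 to -0.74; limma adjusted p = 0.0299). Of the 6 muscle microRNAs, miR-499 alone passed in sapje-like fish, where 8.98% of all probes passed (5.39% as lower), and none passed in sapje, where 1.2% did. In sapje 2 of the 6 had an unadjusted p under 0.05, as had 18 of all 167 probes. The effects in the 2 lines were not shown to differ (sapje-like minus sapje -0.65 ± 0.60, interval -1.94 to 0.64; limma adjusted p = 0.858, with 0% of probes passing). The sapje-like call was lost without SLW replicate 2 (-1.24, limma adjusted p = 0.121), SLW replicate 5 (-1.77, 0.111), sapje-like replicate 2 (-1.75, 0.0771) or sapje-like replicate 3 (-1.40, 0.141). It was also lost under loess within each array (-1.34, 0.0692), median scaling (-1.36, 0.0589), cyclic loess (-1.05, 0.116) and fits of 30 dpf alone (-1.55, 0.0831) or of the 2 groups alone (-1.60, 0.255). The pooled miR-499 call, whose limma adjusted p was 0.0141, held with any 1 of the 20 samples left out, the adjusted p reaching at most 0.0380, and was lost only where the 30 dpf samples were fitted alone (-1.22, 0.0586).

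miR-1, the most general of the striated muscle microRNAs, was 14.65 in each of the 3 wild type SW samples and 13.43, 14.30 and 13.94 in sapje replicates 1, 2 and 3. It was 14.65, 14.65 and 13.94 in wild type SLW replicates 2, 5 and 8 and 13.64, 13.94 and 13.94 in the sapje-like samples. The equal values come from quantile normalisation, which gives the brightest probe of every sample the same number, and miR-1 was the brightest of the 219 probes in all 3 SW samples and in SLW replicates 2 and 5. The spread of miR-1 within SW was thereby set to 0. The groups did not overlap in the sapje cohort and touched in the sapje-like cohort, where SLW replicate 8 equalled sapje-like replicates 2 and 3. In the authors' deposited table miR-1 was 23232, 21506 and 22728 in SW against 11618, 19609 and 14916 in sapje. There it was 23249, 19865 and 13282 in SLW against 11999, 19558 and 29427 in sapje-like fish, and the sapje-like range enclosed that of SLW.

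The pooled miR-1 difference had a limma adjusted p of 0.0287, and neither cohort passed alone (sapje -0.78 ± 0.26, adjusted p = 0.191; sapje-like -0.59 ± 0.26, adjusted p = 0.167). The SE of the pooled difference was 0.19 in the reported setting, where the SW values were tied. It was 0.32 to 0.37 under median, mean and 75th percentile scaling and cyclic loess. The call depended on how the samples were scaled. It was lost under cyclic loess (-0.07, adjusted p = 0.945), under loess within each array (-0.13, 0.800), under median scaling (-0.37, 0.503), under 75th percentile scaling (-0.50, 0.368) and in the authors' deposited table (-0.25, 0.563). Mean scaling over the tested probes other than the 6, an alternative added after the data were seen, also ended it (-0.46, 0.402), as did fitting the 30 dpf samples alone (-0.64, 0.0811). So did leaving out sapje replicate 1 (-0.58, 0.0658), SW replicate 2 (0.0568) or 3 (0.0724), SLW replicate 2 (0.0607) or 5 (-0.60, 0.104), or sapje-like replicate 1 (0.0530) or 2 (0.0512). The sign of the pooled miR-1 difference stayed negative in each of these. Within cohorts, the miR-1 difference stayed negative in 18 of 18 alternatives for sapje. For sapje-like fish it did so in only 12 of 18 and reached 0.40, so its direction there depended on the scaling. The pooled miR-499 estimate stayed between -1.83 and -0.89 under every alternative that tested it.

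**Figure D2:**
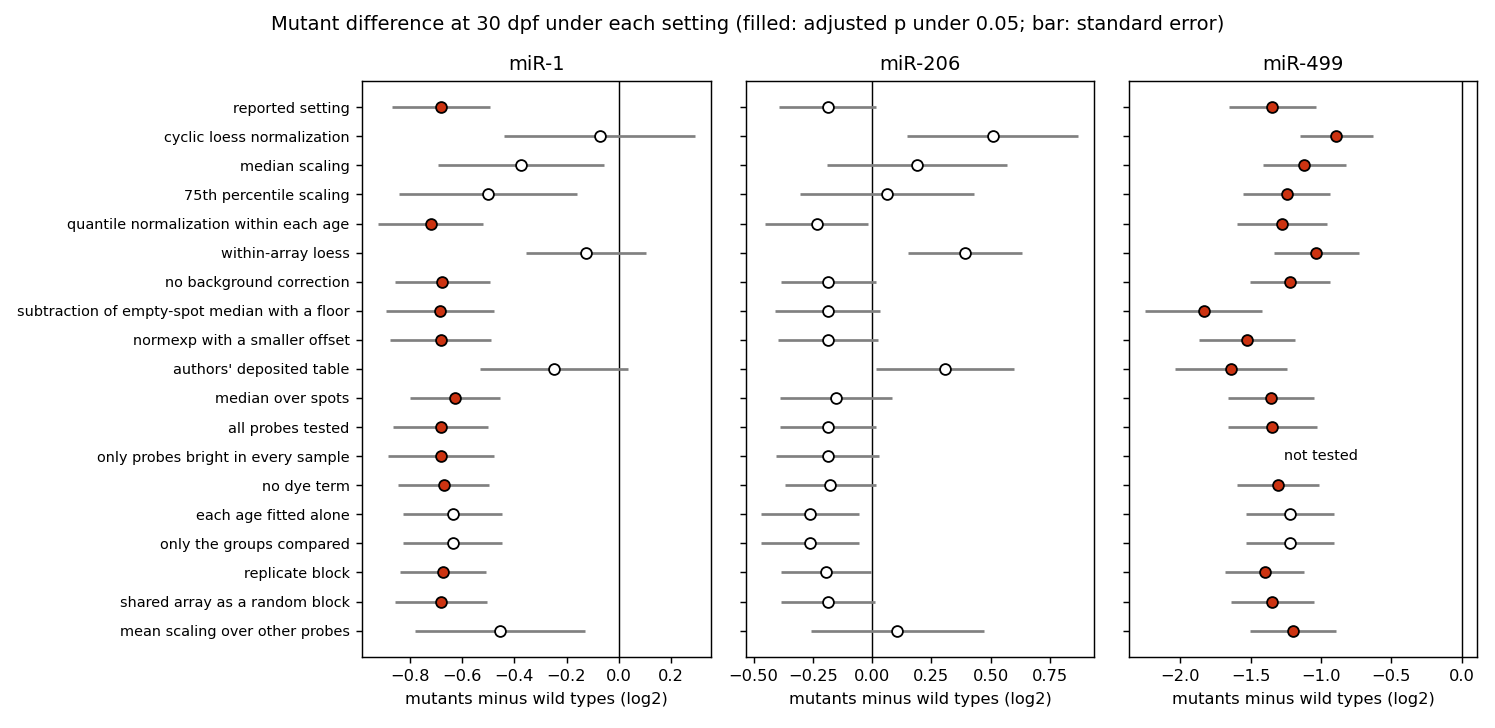
Difference between the 6 mutant and 6 wild type samples at 30 dpf (horizontal axes, log2, ranges differ between panels) for miR-1, miR-206 and miR-499 under the reported setting and 18 alternatives. Points are estimates, bars are standard errors, and filled points have a limma adjusted p under 0.05; miR-206 changes side of 0 with the scaling, whereas miR-499 stays below 0, unfilled only where each age or the compared groups were fitted alone.

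miR-206 shares the seed of miR-1 but was not called. It ranked 1 to 4 in brightness among the mature probes in every sample, so quantile normalisation gave it few distinct values. It was 14.30 in each of the 3 SW samples and 13.64, 13.94 and 14.30 in the sapje samples. In the sapje-like cohort it was 14.30, 14.30 and 13.64 in the SLW samples and 13.94, 13.64 and 14.65 in the mutants. The groups overlapped in both cohorts, and the pooled difference was -0.19 ± 0.20 (interval -0.63 to 0.25; limma adjusted p = 0.639). Its sign turned positive under 6 of the 18 alternatives, reaching 0.51 under cyclic loess and 0.31 in the authors' deposited table, so the data gave no direction for miR-206.

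The 3 miR-133 probes stood lower on average in both mutants, none past the threshold. Pooled differences were -0.49 ± 0.35 for miR-133a (limma adjusted p = 0.432), -0.51 ± 0.37 for miR-133b (0.438) and -1.09 ± 0.64 for miR-133c (0.285). miR-133c, the member whose hairpin neighbours mir206-2, was 10.53, 10.40 and 10.61 in the SW samples and 8.65, 9.91 and 9.50 in the sapje samples. It was 10.86, 10.81 and 7.75 in SLW replicates 2, 5 and 8 and 8.94, 9.30 and 7.82 in the sapje-like samples. The sapje values lay below all SW values, whereas SLW replicate 8 lay below every sapje-like sample. For miR-133a and miR-133b the sapje and SW values overlapped, but SLW replicate 8 again lay below every sapje-like sample. It had 11.18 and 10.94, against 12.94 to 13.08 and 12.80 to 12.94 in SLW replicates 5 and 2.

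The 6 arrays at 30 dpf each compared a mutant and a wild type directly, without adjustment for dye. The mutant was in Cy3 on all of them except those of sapje replicate 2 and sapje-like replicate 2. miR-499 was lower in the mutant on 6 of 6 arrays, with a median difference of -1.45 and the smallest difference at -0.44. On the arrays with the mutant in Cy5 it differed by -0.44 and -1.51. The share of all probes lower on every array was not computed. miR-1 was lower on 5 and tied on 1, and each miR-133 probe was lower on 5 and higher on 1, in every case the array of sapje-like replicate 3 and SLW replicate 8. miR-206 was lower on 4 arrays, equal on 1 and higher by 1.02 on that same array. In the authors' deposited table miR-1 was 1.15 higher on the log2 scale and miR-206 was 1.97 higher in sapje-like replicate 3 than in SLW replicate 8.

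**Figure D3:**
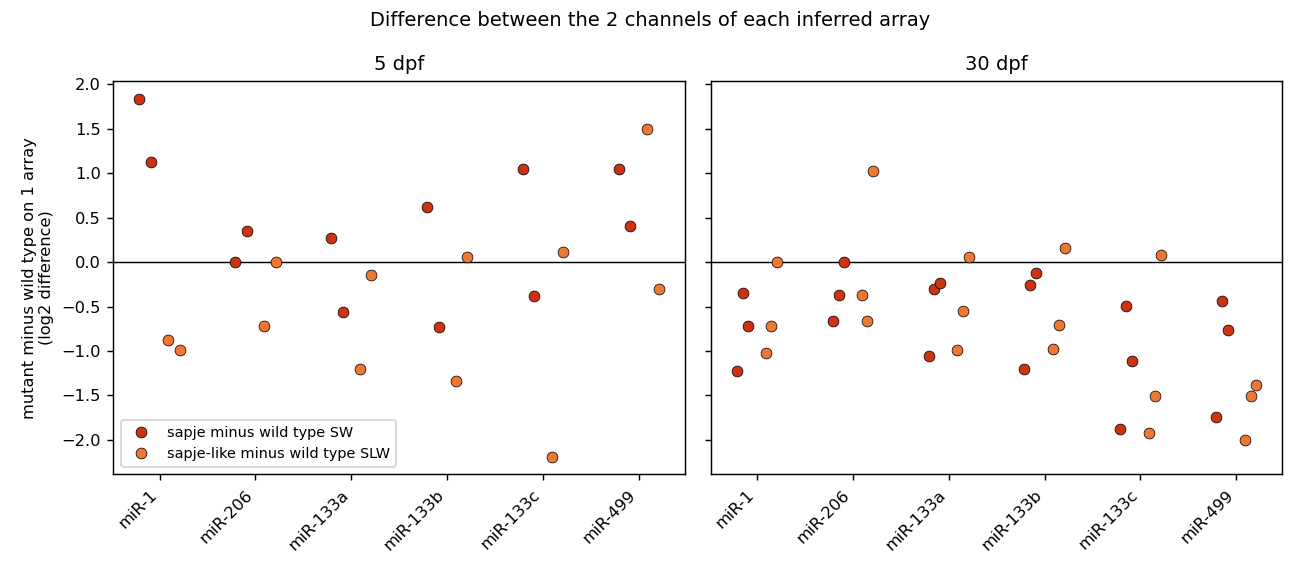
Mutant minus wild type difference (vertical axis, normalised log2, not adjusted for dye) between the 2 channels of each inferred array. The 4 arrays at 5 dpf and the 6 arrays at 30 dpf are shown. Each point is 1 array, coloured by cohort; at 30 dpf the miR-499 points all lie below 0, and at 5 dpf the miR-1 points lie above 0 for sapje and below 0 for sapje-like fish.

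Markers of the digestive organs moved with the same samples. The mean log2 intensity of 4 gut and liver microRNAs (miR-122, miR-192, miR-194a and miR-194b, all 4 tested) was 7.17 to 7.39 in the SW samples and 9.16 to 11.91 in the sapje samples. It was 7.17 and 7.26 in SLW replicates 2 and 5 but 11.85 in SLW replicate 8, within the 11.59 to 12.16 of the sapje-like samples. Over both cohorts 3 of the 4 passed as higher in mutants, as did 5.39% of all probes, with a median log2 difference of 3.55, and miR-122, the main microRNA of hepatocytes, rose by 4.60 ± 0.81 (limma adjusted p = 0.00270). The mean of the 6 muscle microRNAs was 12.16 to 12.63 in the 5 samples with low gut and liver values and 10.95 to 11.84 in the other 7. Of the pancreas, smooth muscle, nervous system and epithelium lists none passed over both cohorts at 30 dpf, and the blood microRNA miR-451 fell by 1.07 ± 0.28 (limma adjusted p = 0.0220). The mean of the pancreas list was still 8.00 to 8.18 in sapje replicate 1, SLW replicate 8 and the sapje-like samples, against 7.22 to 7.47 in the others. Smooth muscle miR-145 passed as higher in sapje-like fish against SLW (1.34 ± 0.38, limma adjusted p = 0.0415), where 8.98% of all probes passed, but not in sapje. The part of the gut and liver, pancreas, smooth muscle and blood microRNAs in the muscle result was not tested.

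Without SLW replicate 8, the wild type with high gut and liver values, 4 of the 6 muscle microRNAs passed as lower in mutants at 30 dpf. In that fit 25.1% of all 167 probes passed, 14.4% as lower. Beside miR-1 (-0.79, limma adjusted p = 0.00632) and miR-499 (-1.51, 0.00382) these were miR-133a (-0.77, 0.0467) and miR-133c (-1.56, 0.0437). In the sapje-like cohort alone, miR-1 then passed beside miR-499 (-0.82, limma adjusted p = 0.0376), where 20.4% of all probes passed, 11.4% as lower. SLW replicate 8 also had the lowest muscle mean of the 30 dpf wild types, 10.96 against 12.16 to 12.63 in the others. Leaving it out raises the wild type mean of the muscle microRNAs, so these fits add no separate evidence.

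**Figure D4:**
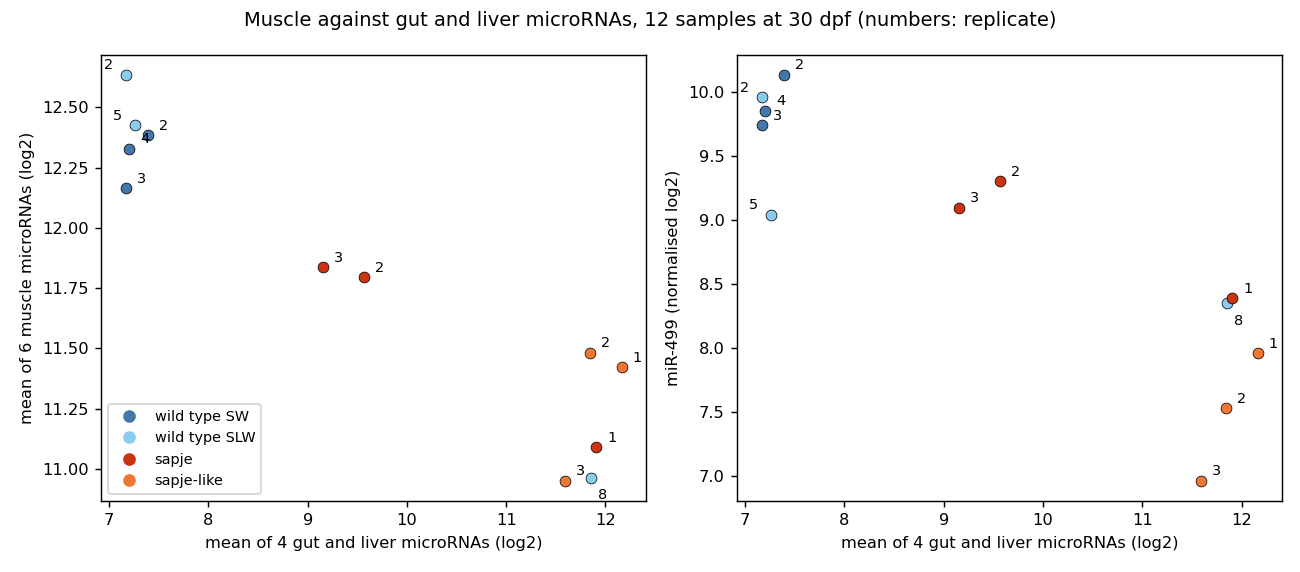
Mean log2 intensity of the 6 muscle microRNAs (left) and of miR-499 alone (right) against the mean of 4 gut and liver microRNAs (horizontal axes, log2) in the 12 samples at 30 dpf, numbered by replicate. On the left, the 3 wild type SW samples and SLW replicates 2 and 5 lie at the upper left, and SLW replicate 8 lies among the mutants. For miR-499, SLW replicate 5 (9.04) lies below sapje replicates 2 (9.30) and 3 (9.09).

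At 5 dpf none of the 6 muscle microRNAs passed over both cohorts, and miR-1 stood in opposite directions in the 2 cohorts. The median log2 difference over the 6 was 0.25 in sapje against SW and -0.66 in sapje-like fish against SLW, where 5 of the 6 were negative; over all probes the medians were near 0 in sapje and 0.03 in sapje-like fish. miR-1 was 11.60 and 12.09 in the wild type SW samples and 13.43 and 13.22 in sapje, without overlap, a rise of 1.48 ± 0.31, 2.79-fold (limma adjusted p = 0.0198). It was 1 of 6 muscle microRNAs past the threshold, against 1.8% of all probes (1.2% as higher), and 22.8% of all probes were higher without overlap. In the other cohort miR-1 was 14.30 and 13.94 in the wild type SLW samples and 13.43 and 12.94 in sapje-like fish, also without overlap but in the other direction (-0.93 ± 0.31, limma adjusted p = 0.730). There 0.599% of all probes passed and 12.6% were lower without overlap. The test of the difference between the cohorts gave -2.41 ± 0.44 (limma adjusted p = 0.0162), and miR-1 was the only one of the 167 probes past it, 0.599% of those tested.

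miR-1 also differed between the wild types of the cohorts, which lay on separate inferred arrays. miR-1 was 4.84-fold higher in SLW than in SW larvae, by 2.27 ± 0.31 on the log2 scale (limma adjusted p = 0.000839), in a comparison that 1.8% of all probes passed, all of them higher in SLW. Without overlap, 16.8% of all probes were higher in SLW. In the authors' deposited table it read 3039 and 4969 in SW, 13239 and 10049 in sapje, 29859 and 14394 in SLW and 11175 and 8872 in sapje-like larvae. There both mutant groups lay between the wild types. At 30 dpf no muscle microRNA passed between SLW and SW (miR-1 -0.24 ± 0.26, interval -0.79 to 0.31; limma adjusted p = 0.916), with 0.599% of all probes passing. There 0 of the 6 reached an unadjusted p under 0.05, against 15 of all 167 probes.

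The size of these miR-1 differences at 5 dpf varied little, from 1.15 to 1.60 for sapje against SW and from 2.02 to 2.59 for SLW against SW over the 18 alternatives, but the calls did not all hold. The sapje call was lost under the authors' deposited table (1.57, limma adjusted p = 0.377) and under cyclic loess (1.51, 0.481), median (1.41, 0.238) and 75th percentile scaling (1.15, 0.164). It was also lost under within-array loess (1.41, 0.158), with each age fitted alone (0.142), under mean scaling over the other probes (0.239) and without sapje replicate 1 (0.280), sapje replicate 2 (0.108) or SW replicate 1 (0.188). The difference between cohorts passed in 9 of 18 alternatives and was lost without sapje replicate 1 (0.120) or 2 (0.0598), SW replicate 1 (0.144), SLW replicate 1 (0.134) or sapje-like replicate 2 (0.149). The wild type difference passed in 13 of 18 alternatives, its adjusted p reaching 0.328 where only SLW and SW larvae were fitted, and held with any 1 sample left out. Its SE was 0.31 in the reported setting, against 0.53 to 0.61 under median, mean and 75th percentile scaling and cyclic loess.

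Of the other muscle microRNAs at 5 dpf none passed in either cohort or over both, where 1.2% of all probes did. Over both cohorts 0 of the 6 had an unadjusted p under 0.05, against 16 of all 167 probes. miR-499 was 8.59 and 9.24 in SW and 9.64 and 9.64 in sapje larvae, and 8.51 and 9.80 in SLW and 10.00 and 9.50 in sapje-like larvae. Its pooled difference was 0.66 ± 0.37 (interval -0.13 to 1.45; limma adjusted p = 0.583), opposite in sign to that at 30 dpf. miR-133c ranged from 7.44 to 9.13 in sapje and from 8.01 to 11.18 in SLW larvae, and overlapped the other group of its cohort in both. miR-206 was at 14.30 or above in 7 of the 8 larval samples and at 13.94 in sapje-like replicate 1, with a pooled difference of -0.09 ± 0.24.

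Between 5 and 30 dpf, a comparison between separate arrays, miR-1 and miR-133c passed as higher with age in the wild types of the sapje cohort. In SW, miR-1 rose by 2.81 ± 0.29 on the log2 scale, 7.04-fold (limma adjusted p = 8.89e-06), from the 11.60 and 12.09 given above to 14.65 in all 3 samples. Those 3 values were tied by the normalisation, so the SE was fitted with no spread among them. miR-133c, at or near background in SW larvae (8.09 and 7.82, or 1.80 and 1.26 times the empty-spot median), rose by 2.53 ± 0.98, 5.77-fold (limma adjusted p = 0.0439). These were 2 of 6 muscle microRNAs in a comparison in which 54.5% of all probes passed, 26.3% as higher, and the median log2 difference was 0.76 over the 6 and 0.01 over all 167. The miR-1 rise passed under all 16 alternatives, at 1.94 to 2.85, and with any 1 sample left out. miR-499 changed by 1.01 ± 0.48 (limma adjusted p = 0.0841) and passed under mean scaling over the other probes (1.64, 0.00791), 75th percentile scaling (1.58, 0.0120), a fit of the 2 groups alone (1.02, 0.0376) and without SLW replicate 2 at 30 dpf (1.03, 0.0460). The miR-133c rise was lost under cyclic loess (1.94, limma adjusted p = 0.109), under median scaling (2.03, 0.0582), with all 219 probes tested (0.0722), and in 9 of the 20 fits that left out a sample. Those were SW replicates 1 (0.140) and 2 (0.155) at 5 dpf, SW replicates 2 (0.0723), 3 (0.0918) and 4 (0.0789) at 30 dpf, both sapje-like larval samples (0.0529 each), sapje replicate 3 (0.0536) and sapje-like replicate 1 (0.0518) at 30 dpf.

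In SLW fish none of the 6 passed between the ages, where 41.3% of all probes did. In this comparison 0 of the 6 had an unadjusted p under 0.05, against 81 of all 167 probes. miR-1 changed by 0.30 ± 0.29 there (interval -0.32 to 0.92). In sapje fish none of the 6 passed, where 35.3% of all probes did. Of the 6, miR-206 had an unadjusted p under 0.05 (-0.70 ± 0.31, limma adjusted p = 0.102), as had 71 of all 167 probes. In sapje-like fish miR-499 fell by 2.28 ± 0.48, 4.86-fold (limma adjusted p = 0.00197), from 10.00 and 9.50 to 7.96, 7.53 and 6.97. In that comparison 32.3% of all probes passed, 17.4% as lower. That fall passed under every alternative in which miR-499 was tested and with any 1 sample left out. Its 30 dpf values were near background, at 1.79, 1.90 and 1.16 times the empty-spot median, the last not above background.

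Whether the mutants differed from wild types by the same amount at both ages was tested directly. miR-499 passed: its age difference was lower in mutants than in wild types by a log2 value of -2.01 ± 0.48 (limma adjusted p = 0.0215), where 7.78% of all probes passed, 4.79% as lower. The call was lost under cyclic loess (-1.67, limma adjusted p = 0.0703), within-array loess (-1.97, 0.0557) and 75th percentile scaling (-2.11, 0.0509). It was also lost without sapje replicate 1 (0.0589) or 2 (0.0599), SW replicate 1 (0.0871), SLW replicate 1 (0.0883) or sapje-like replicate 1 (0.0943), all larvae. miR-1 missed the threshold at -0.96 ± 0.29 (0.0573) and passed with the samples of an array as a random block (0.0408), or without SW replicate 2 at 5 dpf (0.0342), sapje replicate 2 at 30 dpf (0.0257) or SLW replicate 8 (0.0214). The other 4 ranged from -0.73 to -0.08 and did not pass.

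The order of the 8 groups differed between the members. miR-1 was highest in SW at 30 dpf (14.65), then SLW at 30 dpf (14.42 ± 0.42, SD, n = 3) and SLW larvae (14.12 ± 0.26, n = 2), and lowest in SW larvae (11.85 ± 0.35, n = 2). Neighbours in that order overlapped except at 2 steps: between sapje-like fish at 30 dpf (13.84 ± 0.17) and sapje larvae (13.32 ± 0.15), and between sapje-like larvae (13.19 ± 0.34) and SW larvae. miR-499 was highest in SW at 30 dpf (9.91 ± 0.20, n = 3) and lowest in sapje-like fish at 30 dpf (7.49 ± 0.50, n = 3), and only this last group stood clear of its neighbour, SW larvae at 8.91 ± 0.46. For miR-206, miR-133a, miR-133b and miR-133c each group overlapped the next over the whole order, miR-206 ranging from 13.96 in sapje at 30 dpf to 14.65 in sapje and SLW larvae.

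miR-133a and miR-133b, whose sequences differ only in their last base, gave nearly the same profile, with Pearson's r = 0.985 over the 20 samples and 0.994 on the log2 values of the authors' deposited table. miR-133c, which differs from miR-133b inside the sequence, followed them less closely, with r = 0.802 to miR-133a and 0.836 to miR-133b. miR-206 ranked 1 to 4 in brightness among the mature probes in every sample, so quantile normalisation gave it few distinct values. The effect of this on its r with miR-1 was not tested. miR-1 and miR-206, with 1 seed but 4 differing bases, had r = -0.18 over the 20 samples, 0.561 over the 12 at 30 dpf and 0.0808 over the 8 larval samples. On the log2 values of the authors' deposited table their r was -0.03 over the 20 samples. These values share arrays, dyes and normalisation, and how far the probe for miR-133a also captures miR-133b was not tested.

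**Figure D5:**
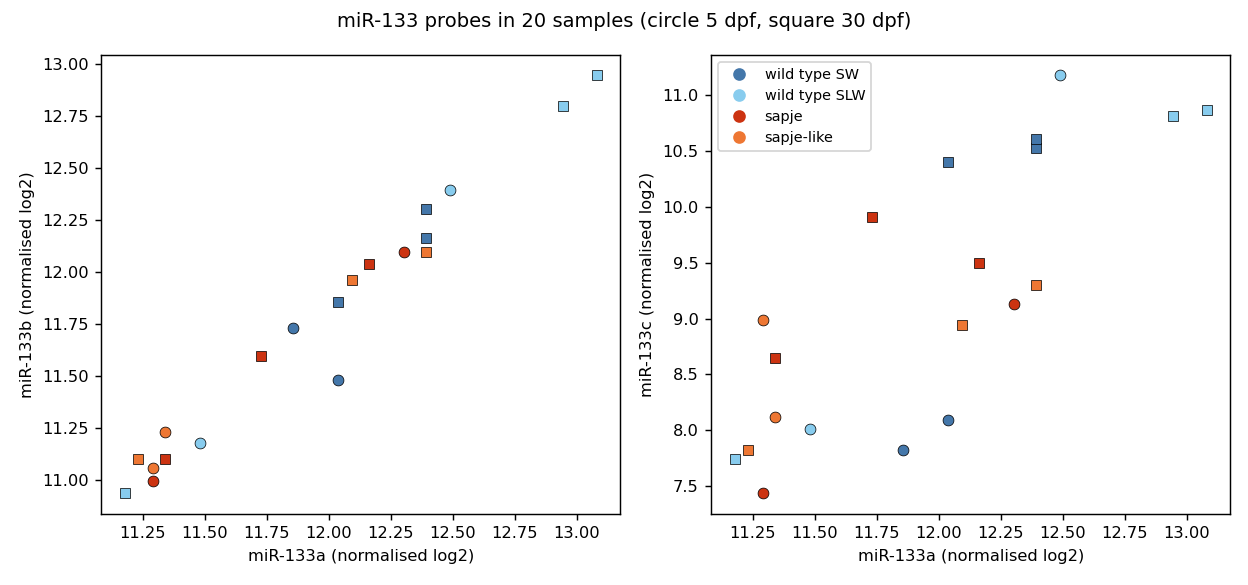
Normalised log2 intensity of miR-133b (left) and miR-133c (right) against miR-133a (horizontal axes) in 20 samples, circles at 5 dpf and squares at 30 dpf, coloured by genotype. The miR-133b points lie close to a line (r = 0.985) and the miR-133c points scatter more widely (r = 0.802).

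The passenger strand of miR-133a was also on the array.
miR-133a*: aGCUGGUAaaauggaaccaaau
It was above background in 15 of 20 samples, and that of miR-133b in 0 of 20. miR-133a* rose with age in SW (0.87 ± 0.26, limma adjusted p = 0.0126) and SLW (0.88 ± 0.26, 0.0127), where 54.5% and 41.3% of all probes passed. In larvae it was not above background in SW replicates 1 and 2 or in SLW replicate 2, so these rises start from values at or near background. The miR-133a age differences, 0.32 ± 0.54 (interval -0.84 to 1.47) and 0.41 ± 0.54 (-0.75 to 1.56), did not pass, and whether the strands differ was not tested. At 30 dpf miR-133a* was 7.72, 7.72 and 7.63 in SW and 7.00, 7.32 and 7.40 in sapje, and 8.19, 7.86 and 7.16 in SLW and 7.23, 7.18 and 7.23 in sapje-like fish. The sapje values lay below those of SW, SLW replicate 8 was again the lowest of the SLW cohort, and the pooled difference of -0.49 ± 0.17 did not pass (limma adjusted p = 0.0653).

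Among the 161 tested probes outside the 6, those most like the mean of the muscle microRNAs over 20 samples were miR-99 (r = 0.834), miR-338 (0.803), miR-100 (0.785), miR-365 (0.742) and miR-133a* (0.731). For these 5, r was 0.888 to 0.937 over the 12 samples at 30 dpf and 0.0916 to 0.519 over the 8 larval samples. The least like were miR-217, of the exocrine pancreas (-0.878), and miR-194a (-0.835) and miR-192 (-0.795), of the gut. The samples behind these correlations share arrays and fall into 2 ages, and the values are descriptions only. At 30 dpf miR-99 (-1.12 ± 0.32, limma adjusted p = 0.0344) and miR-100 (-0.68 ± 0.19, 0.0287) passed as lower in mutants, where 13.2% of all probes passed, 7.78% as lower. These probes were picked for likeness to the muscle mean over the same samples, so their passing adds no separate evidence.

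Of 12 tested microRNAs known from dystrophic or regenerating mammalian muscle 1 passed over both cohorts at 5 dpf, where 1.2% of all probes did, and 3 at 30 dpf, where 13.2% did. miR-21, a microRNA of fibrosis, rose by 1.61 ± 0.16 at 5 dpf (limma adjusted p = 1.76e-05) and by 0.62 ± 0.13 at 30 dpf (0.0133). miR-146b, induced by inflammatory signalling, rose by 1.91 ± 0.30 at 30 dpf (0.00216), and miR-199 fell by 0.73 ± 0.20 (0.0317).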

How the data were processed

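Small RNA of 20 whole-fish samples was size-selected, tailed and stained with Cy3 or Cy5 by a service provider, per the labels' protocols. The deposited scanner files give, per the file headers, the mean spot intensity of 1 channel on a linear scale, with 3968 spots and 12 per probe. The authors' deposited table holds 1 processed intensity per probe. Its background correction, scale and centring were not given in the sources used here; the column medians were 95.3 to 144. Each column, on the log2 scale, had a correlation of 0.968 to 0.983 with the same sample from the scanner files, which settles its direction; the table served only as an alternative.

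Spot intensities were background-corrected (normexp, offset 50), log2-transformed, averaged per probe and quantile-normalised over 219 mature probes. A probe was tested if some group had 2 or more samples above background (167 probes; 52 were left out). limma 3.58.1 in R 4.3.3 fitted 8 groups with dye as a covariate (11 residual degrees of freedom). P-values were adjusted by Benjamini-Hochberg over 167 probes in each of 15 comparisons, 1 table each, threshold 0.05. The comparisons share samples: each pooled comparison holds the samples of its cohorts, and each cohort uses the same wild types in its age and genotype comparisons. Fold changes of dim probes are understated by the offset. The number of arrays limits the precision. The fits were tested on simulated data with independent normal errors. Those data held no shared arrays, dye effects or tied ranks, so the test does not cover these features.

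The 6 microRNAs were all named. Outside them the rule took the passenger strands, the 5 most and 3 least similar probes and those of 12 dystrophy microRNAs that passed. The members and lists were chosen with earlier results of these data known. Sequences are those of the files' target column; hairpin neighbours came from RefSeq (GRCz12tu). Alternatives covered background, normalisation, filters, model and samples left out.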

Additional observations from a re-analysis of the deposited data

Results flagged for a closer look

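The mutant minus wild type difference of miR-1 differed between the cohorts at 5 dpf, by log2 -2.41 (sapje-like minus sapje, limma adjusted p = 0.0162). The test of the difference itself drew attention to it. miR-1 was higher in both sapje samples and lower in both sapje-like samples than in the wild types of their own cohort. The mutant larvae had close means, 13.32 in sapje and 13.19 in sapje-like, whereas SLW larvae exceeded SW larvae by 2.27. The cohorts lay on separate inferred arrays, so these levels cannot show whether the contrast came from the wild types or the mutants. The sapje-like difference alone did not pass (limma adjusted p = 0.730), and the cohort contrast passed in 9 of 18 alternatives.

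miR-499 had a mutant effect that differed between the ages, by -2.01 on the log2 scale (age difference in mutants minus that in wild types; limma adjusted p = 0.0215). It was higher in mutants on 3 of 4 arrays at 5 dpf and lower on 6 of 6 at 30 dpf, in differences not adjusted for dye. The share of all probes with such counts was not computed. These counts come from the same values as the test and add no separate evidence. The pooled difference at 5 dpf did not pass on its own (0.66 ± 0.37, limma adjusted p = 0.583).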

How the results depend on the processing

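Of the 90 differences (6 microRNAs in 15 comparisons), 10 passed. Under 18 alternatives, 167 values of these 10 all kept their sign and 125 still passed; with each of 20 samples left out, 200 kept their sign and 167 passed. Over all 90 differences, the sign changed in 101 of 1530 values under the alternatives and in 86 of 1800 with a sample left out. In each of these neither value passed.

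The number of muscle microRNAs past the threshold changed as follows. Sapje minus SW at 5 dpf went from 1 to 0 under cyclic loess, median, 75th percentile and mean scaling over other probes (added after the data were seen), within-array loess, the authors' deposited table and each age alone. Sapje-like minus SLW at 30 dpf went from 1 to 0 under cyclic loess, median scaling, within-array loess, each age alone, only the groups compared, and a filter for probes above background in every sample. That filter drops miR-133c and miR-499. Both mutants at 30 dpf went from 2 to 1 under the same filter, cyclic loess, the 3 scalings, within-array loess and the authors' deposited table, and to 0 in fits of each age alone or of only the groups compared. The cohort difference at 5 dpf went from 1 to 0 under those settings other than the filter and under quantile normalisation within each age. SLW minus SW at 5 dpf went from 1 to 0 under cyclic loess, the 3 scalings and only the groups compared. SW between ages went from 2 to 1 under cyclic loess, median scaling, all probes tested and the filter, and to 3 (miR-499) under 75th percentile and mean scaling and with only the groups compared. Sapje between ages went from 0 to 1 under median scaling (miR-499, -1.20, limma adjusted p = 0.0365). Sapje-like between ages went from 1 to 2 under 75th percentile scaling and the median over spots, and to 0 under the filter. The test between ages went from 1 to 0 under cyclic loess, 75th percentile scaling, within-array loess and the filter, and to 2 with the array or the replicate number as a block. The cause of these changes was not tested.

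With 1 sample left out, the counts ranged from 0 to 1 for sapje minus SW at 5 dpf, 0 to 2 for sapje-like minus SLW at 30 dpf, 1 to 4 for both mutants at 30 dpf, 0 to 1 for the cohort difference at 5 dpf, 1 to 3 for SW between ages, 0 to 1 for sapje between ages and 0 to 2 for the test between ages.

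With the replicate number within cohort and age as a random block (consensus correlation 0.319), miR-1 passed the test between ages (-0.95, limma adjusted p = 0.0195) and no other call of the 90 changed. Samples of the same number correlated at 0.513 and 0.393 at 5 dpf, where they share an array, and at -0.21, -0.15 and -0.01 at 30 dpf, where they do not. The few 30 dpf values thus gave no sign that the numbers pair the samples. At 5 dpf number and array cannot be told apart.

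Median scaling moved the median of all probes by -0.95 in SW between ages and by -0.20 in both mutants at 5 dpf; the authors' deposited table moved it by -0.19 in both mutants at 30 dpf. Fits of each age alone and quantile normalisation within each age were not run for the comparisons between ages. Empty spots had median intensities of 282 to 572 in Cy3 and 32.4 to 47.2 in Cy5, which limits what could be read for miR-133c and miR-499 in Cy3.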
